A study of Mus musculus with 8 samples.

Results

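The neurexins and neuroligins examined here were Nrxn2, Nrxn3, Nlgn1, Nlgn2 and Nlgn3, 5 of the 21951 protein-coding genes in the annotation. Their members were the ATAC-seq peaks that overlapped the gene body or the 10 kb on either side, in mm10 coordinates with GENCODE gene models. These were 200 of 152984 peaks in the wild-type (WT) list, 145 of 106974 in the heterozygous (het) list and 217 of 174407 in the mutant list. ATAC-seq marks open chromatin by where the Tn5 transposase can insert into DNA.

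Neurexins are presynaptic adhesion proteins that bind neuroligins across the synaptic cleft, and the pair helps to organise and specify synapses. Each neurexin gene has an upstream promoter for the long alpha form and an internal promoter for the short beta form, which keeps the last part of the extracellular region and the intracellular tail. Nlgn1 is found mainly at excitatory synapses and Nlgn2 at inhibitory synapses, and Nlgn3 occurs at both. In the cerebellum, granule neurons carry neurexins on the parallel fibres, where they also bind secreted cerebellins.

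Accessibility was measured in granule neuron progenitors (GNPs), the dividing precursors of cerebellar granule neurons, taken at postnatal day 7 (P7) from mice of strain C56Bl6/J, as the labels spell it. The labels give the genotypes as Chd7 wild type (3 libraries), Chd7 mutant (3 libraries) and Chd7 het (2 libraries). In the study's breeding scheme WT GNPs are Chd7 f/f without Cre, and het and mutant GNPs carry 1 or both floxed Chd7 alleles with Atoh1-Cre, whose promoter drives Cre in the granule lineage. The methods call the WT and mutant replicates technical. Chd7 encodes a chromatin remodelling enzyme, and the comparison asks how its loss alters open chromatin.

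The libraries of a group were pooled by the authors before peaks were called, so there is 1 list a group, no spread between libraries and no test of any difference given below. Tags after filtering numbered 50394313 in WT, 51030229 in mutant and 30923002 in het. The het list was called from another alignment with other settings so its values and overlaps reflect processing as well as genotype, which cannot be told apart. The WT and mutant lists differed in tag size, 107 and 76 bp, and any effect of this cannot be told apart from genotype either. The region around Chd7 held 32 WT, 23 het and 40 mutant peaks, and the deletion itself was not checked. All 5 GNP markers looked up (Atoh1, Pax6, Zic1, Neurod1 and Barhl1) had a promoter peak in every list, at WT ranks of 75.3 to 91.9. Of 13 markers of Purkinje cells, glia, interneurons and microglia, a promoter peak was found for 8 in WT and mutant and 7 in het, at WT ranks of 29.4 to 92.9. Calb1 (89.1) of Purkinje cells and Slc1a3 (77.5) of Bergmann glia lay among the GNP markers. Car8 (92.9) of Purkinje cells lay above all of the GNP markers and Olig2 (74.5) just below them. Pcp2, Gfap, Sox10, Aif1 and Cx3cr1 had no peak in any list. The part of other cells in the results was not tested.

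The start sites came first, since the alpha and beta promoters decide which neurexin is made. The strength of a peak is given as its rank, the percentage of peaks of its own list with a −log10 q at or below its own, so that 100 is the strongest. RefSeq promoter windows, 250 bases before to 50 after a start, were matched for 3 of the 5 genes (Nrxn3, Nlgn1 and Nlgn2). They are printed 5′ to 3′ on the gene's strand in GRCm38.p6, with CpG dinucleotides in capitals. These are marked because the annotated Nrxn3 alpha start, without a peak, and beta start, with a peak, differ in them.
Nrxn3 alpha, chr12:88794254-88794553, plus strand: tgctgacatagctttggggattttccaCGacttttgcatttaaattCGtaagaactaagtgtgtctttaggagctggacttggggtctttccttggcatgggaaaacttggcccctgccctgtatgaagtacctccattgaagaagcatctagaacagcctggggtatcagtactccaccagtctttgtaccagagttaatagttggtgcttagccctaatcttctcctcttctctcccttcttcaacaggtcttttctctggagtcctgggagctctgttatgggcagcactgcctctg
Nrxn3 beta, chr12:89812233-89812532, plus strand: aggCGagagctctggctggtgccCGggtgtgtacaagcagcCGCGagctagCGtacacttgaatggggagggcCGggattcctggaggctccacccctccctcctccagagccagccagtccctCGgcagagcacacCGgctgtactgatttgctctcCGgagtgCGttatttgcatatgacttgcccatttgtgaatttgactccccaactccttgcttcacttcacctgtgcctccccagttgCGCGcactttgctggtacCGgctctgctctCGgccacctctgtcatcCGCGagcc
Nlgn1 upstream, chr3:26331860-26332159, minus strand: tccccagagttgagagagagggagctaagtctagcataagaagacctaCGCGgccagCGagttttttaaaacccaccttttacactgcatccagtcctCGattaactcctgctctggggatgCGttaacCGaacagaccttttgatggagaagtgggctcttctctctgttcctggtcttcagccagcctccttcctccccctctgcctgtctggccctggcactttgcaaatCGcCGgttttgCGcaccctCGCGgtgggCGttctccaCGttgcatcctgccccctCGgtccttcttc
Nlgn1 internal, chr3:26153937-26154236, minus strand: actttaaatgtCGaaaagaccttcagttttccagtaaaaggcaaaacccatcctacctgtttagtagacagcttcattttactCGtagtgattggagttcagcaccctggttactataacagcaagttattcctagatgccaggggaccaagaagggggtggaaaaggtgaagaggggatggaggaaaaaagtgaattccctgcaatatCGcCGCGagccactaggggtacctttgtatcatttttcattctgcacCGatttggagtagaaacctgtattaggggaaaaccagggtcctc
Nlgn2, chr11:69837735-69838034, minus strand: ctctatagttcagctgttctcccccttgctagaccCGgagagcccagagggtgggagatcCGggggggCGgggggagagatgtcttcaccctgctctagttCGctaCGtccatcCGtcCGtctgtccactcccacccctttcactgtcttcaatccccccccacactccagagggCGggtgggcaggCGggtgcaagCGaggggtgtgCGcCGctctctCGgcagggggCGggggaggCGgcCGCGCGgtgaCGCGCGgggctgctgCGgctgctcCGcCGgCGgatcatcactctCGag

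The Nrxn3 alpha window held 2 CpG and had no peak in any list, while the beta window held 16 CpG and lay under a strong peak in each list. The other Nrxn3 window, at chr12:88953140-88953439, held 6 CpG and no peak. The upstream Nlgn1 window held 14 CpG, the internal one 6 and the Nlgn2 window 26, and all of these lay under a peak in each list. The median over 32817 promoter windows was 7. Of the 6 windows, the motif CAGCTG, an E-box, occurred in Nlgn2 alone. TTGGCA, part of an NFI recognition site, occurred in Nrxn3 alpha alone, and CCTGCTG, a Zic site, in the other Nrxn3 window alone. On both strands, 16.3%, 14.1% and 10.5% of all promoter windows hold these letters. None of the 6 windows held the E-box CAGATG (17.2% of all windows), the AP-1 site TGACTCA (5.20%) or the TATA box TATAAA (13.6%).

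Nrxn3 (ENSMUSG00000066392.11, chromosome 12, 88722876 to 90334935, plus strand) is annotated with transcripts that start at its 5′ end, none of them coding. That 5′ start had a peak at chr12:88722708-88723175 in WT, of pileup 60 and rank 96.9, against rank 89.4 in het and pileup 62 and rank 97.4 in mutant. The coding alpha start lay 71.6 kb further on, at 88794504, and no list had a peak within 1 kb of it. It is a start by annotation only, and whether transcription begins there was not tested. Of the remaining coding starts, those at 88953399 and 89193106 also had no peak in any list. The beta start at 89812483, 1090 kb into the gene, had a broad peak in all lists. Its WT peak spanned 89811705 to 89813013 with pileup 74 and rank 94.996, the het peak ranked 94.1, and the mutant peak had pileup 76 and rank 95.7. Scaled to the tags of each list, the mutant to WT pileup ratio was 1.01 at the beta start (95% exact binomial interval 0.727 to 1.42) and 1.02 at the 5′ start (0.704 to 1.48). These intervals cover counting error only.

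Nrxn2 (ENSMUSG00000033768.17, chromosome 19, 6418731 to 6544169, plus strand) had a peak at every alpha and beta start in every list. The peak at the first alpha start had a start of the non-coding gene Gm14965 within 1 kb of it. It ranked 93.5 in WT and 93.8 in mutant, with 90.8 in het and a pileup of 60 in both WT and mutant. A later alpha start at 6427923 ranked 57.8, 43.8 and 55.0 in the same order. The beta start at 6497828 ranked 65.2, 63.5 and 62.7. In this gene the first alpha start therefore carried the strongest promoter peak, and the beta peak ranked below it in each list. In Nrxn3 both the beta start and the non-coding 5′ start were among the strongest peaks. That 5′ start ranked above beta in WT (96.9 against 94.996) and mutant (97.4 against 95.7), and below it in het (89.4 against 94.1). The scaled ratio of mutant to WT pileup was 0.988 at the first alpha start (0.679 to 1.44) and 0.885 at the beta start (0.501 to 1.56).

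Nlgn1 (ENSMUSG00000063887.13, chromosome 3, 25426215 to 26332460, minus strand) had peaks within 1 kb of its upstream and its internal start. The RefSeq windows printed for Nlgn1 include neither of these GENCODE starts. At the upstream start, 26332460, the strongest peak had its WT summit 900 bp inside Nlgn1. A start of the gene A830092H15Rik lay within 1 kb of that peak. It ranked 76.6 in WT, 68.4 in het and 81.8 in mutant, with pileups of 40, 50 and 45. At the coding start 179 kb further on, 26153307, the strongest peak ranked 89.98, 73.0 and 87.4. The mutant to WT ratio was 1.11 at the upstream start (0.709 to 1.75) and 0.887 at the internal one (0.577 to 1.36), so the counts could not set the lists apart at either. The coding start at 26133734 had no peak in any list.

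Nlgn2 (ENSMUSG00000051790.15, chromosome 11, 69823122 to 69837784, minus strand) had its strongest peak over its first start, which it shares with Tmem256. The peak ranked 92.7 in WT and 93.6 in mutant, with 92.9 in het, and the mutant to WT ratio was 1.003 (0.701 to 1.43). A second coding start at 69834849 had no peak. Nlgn3 (ENSMUSG00000031302.16, chromosome X, 101299168 to 101325963, plus strand) had no strong peak at its first start in any list. The WT list had a weak peak within 1 kb of the first start, with its summit 846 bp inside the gene and a rank of 18.4, and the het list had none there. The mutant list had a weak peak over the start itself, at chrX:101299141-101299382 with pileup 15 and rank 15.8, and a second at chrX:101300038-101300676 with pileup 23 and rank 54.9. The latter overlapped a WT peak at chrX:101300212-101300714 of pileup 17 and rank 31.5, which lay just past 1 kb from the start.

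**Figure D1:**
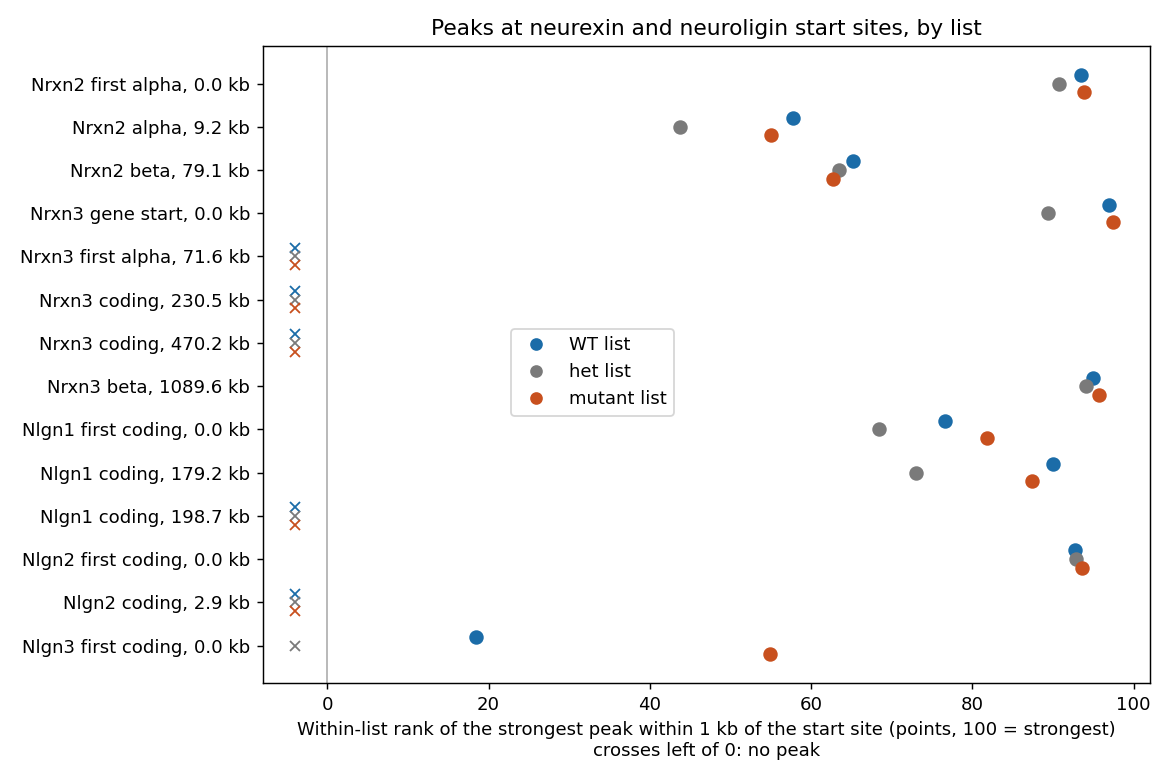
Rank of the strongest peak within 1 kb of each start site (horizontal axis, points, 100 the strongest of its list) for the WT, het and mutant lists, with the distance of each site from the start of its gene in kb. The first annotated alpha start of Nrxn3 has crosses (no peak) in all 3 lists while its beta start sits at 94.996, 94.1 and 95.7. The first start of Nlgn3 is at 18.4 in WT.

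How many peaks of these genes lacked a counterpart was examined next. Overlap by 1 bp or more was enough for a peak to be shared between lists. In the 5 genes 45 of 200 WT peaks lacked a mutant counterpart, 22.5% (Wilson 95% interval 17.3 to 28.8%), where the share over the whole WT list was 22.8%. In the mutant list 58 of 217 lacked a WT counterpart, 26.7% (21.3 to 33.0%), where the whole mutant list gave 30.7%. A het peak overlapped 138 of the 200 WT peaks, 69.0% (62.3 to 75.001%), against 63.1% of the whole WT list. The whole-list share lay within the interval for both WT and mutant peaks without a counterpart and for WT peaks with a het peak. The intervals count peaks as independent, which neighbouring peaks in a gene are not.

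By family, the share was lower in the neurexins than in the neuroligins. In the neurexins 23 of 139 WT peaks had no mutant peak, 16.5% (11.3 to 23.6%), and in the neuroligins 22 of 61, 36.1% (25.2 to 48.6%). Mutant peaks lacking a WT counterpart were 33 of 150 in the neurexins, 22.0% (16.1 to 29.3%), and 25 of 67 in the neuroligins, 37.3% (26.7 to 49.3%). These shares rest mostly on Nrxn3 and Nlgn1, the long genes of each family, and the difference was not tested, since there is 1 list a group. In the 230 protein-coding genes of 500 kb or more, 26.2% of WT peaks had no mutant peak, between Nrxn3 and Nlgn1.

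Nrxn3, at 1612 kb the longest of the 5, held 116 WT, 92 het and 126 mutant peaks, or 7.11 WT peaks per 100 kb of window. No mutant peak overlapped 19 of its WT peaks, 16.4% (10.7 to 24.2%), and no WT peak overlapped 28 of its mutant peaks, 22.2% (15.8 to 30.2%). Of the 116 WT peaks, 111 were intronic. When peaks of the 3 lists within 300 bp were joined, Nrxn3 had 133 regions, of which 80 were in all lists (60.2%), 11 in WT alone (8.27%) and 19 in mutant alone (14.3%). Joined over the whole lists, 190582 regions gave 45.7%, 13.3% and 20.1%.

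Nlgn1, of 906 kb, held 50 WT, 32 het and 55 mutant peaks. Here 18 WT peaks had no mutant peak, 36.0% (24.1 to 49.9%), and 21 mutant peaks had no WT peak, 38.2% (26.5 to 51.4%). By this share of its WT peaks Nlgn1 was at position 49 and Nrxn3 at position 190 of the 230 long genes, from the highest share down. Joined regions numbered 66, of which 25 were in all lists (37.9%), 13 in WT alone (19.7%) and 18 in mutant alone (27.3%), set against the same whole-list shares. The last 25% of the gene held 1 WT peak, 1 het peak and 6 mutant peaks. The 6 mutant peaks had a median rank of 16.9 and no WT peak, and the 1 WT peak had no mutant peak. Over the whole mutant list 30.7% of peaks had no WT peak, and the share among mutant peaks of such low rank was not computed.

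**Figure D2:**
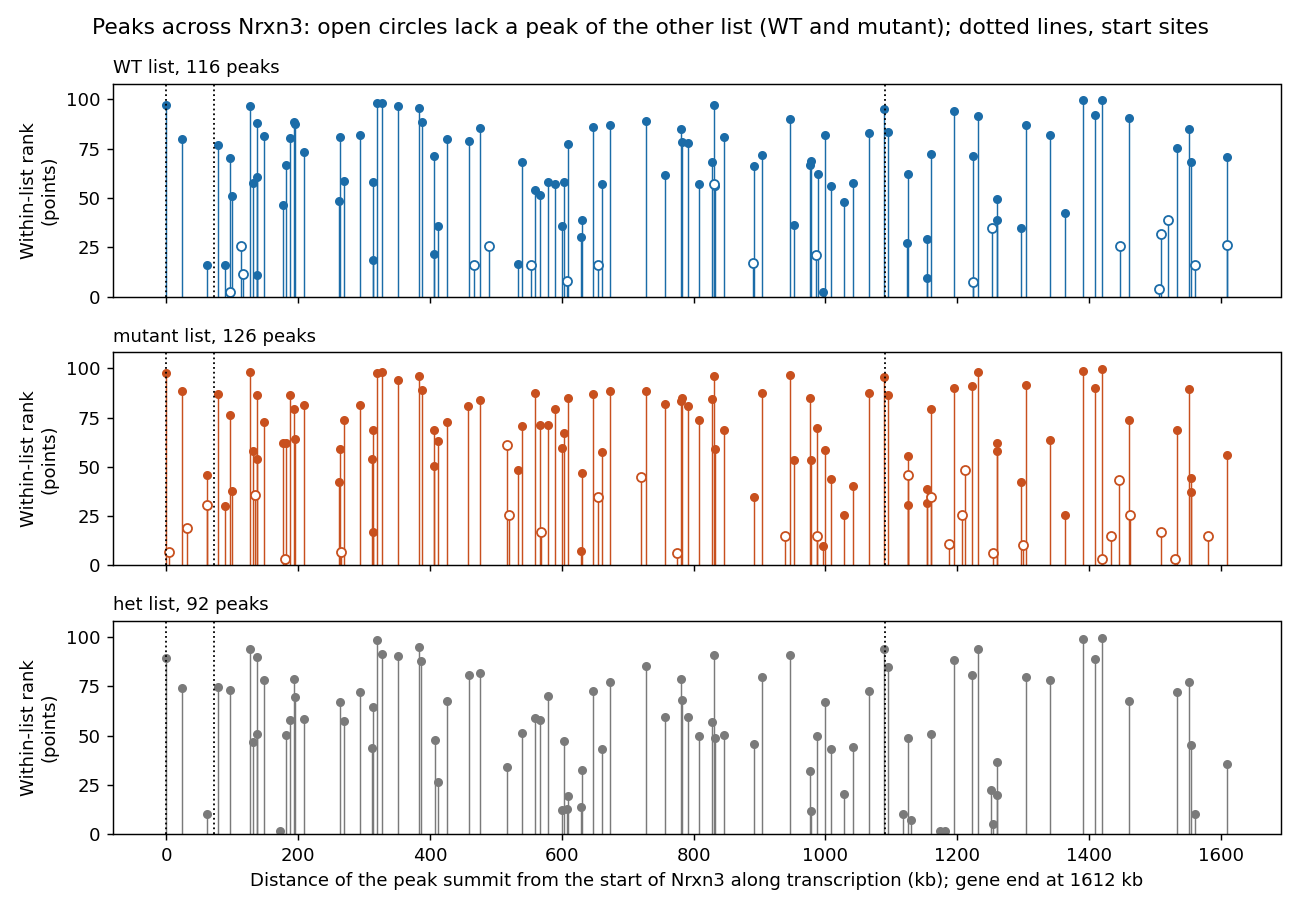
Peaks of the WT, mutant and het lists across Nrxn3, with the distance of the summit from the gene start along transcription (kb) and the rank within the list (points); dotted lines are the 5′ start, the first alpha start and the beta start. Open circles, 19 in WT and 28 in mutant, lack a peak of the other list and lie mostly low, and the peaks at the 5′ and beta starts stand near the top in each list.

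**Figure D3:**
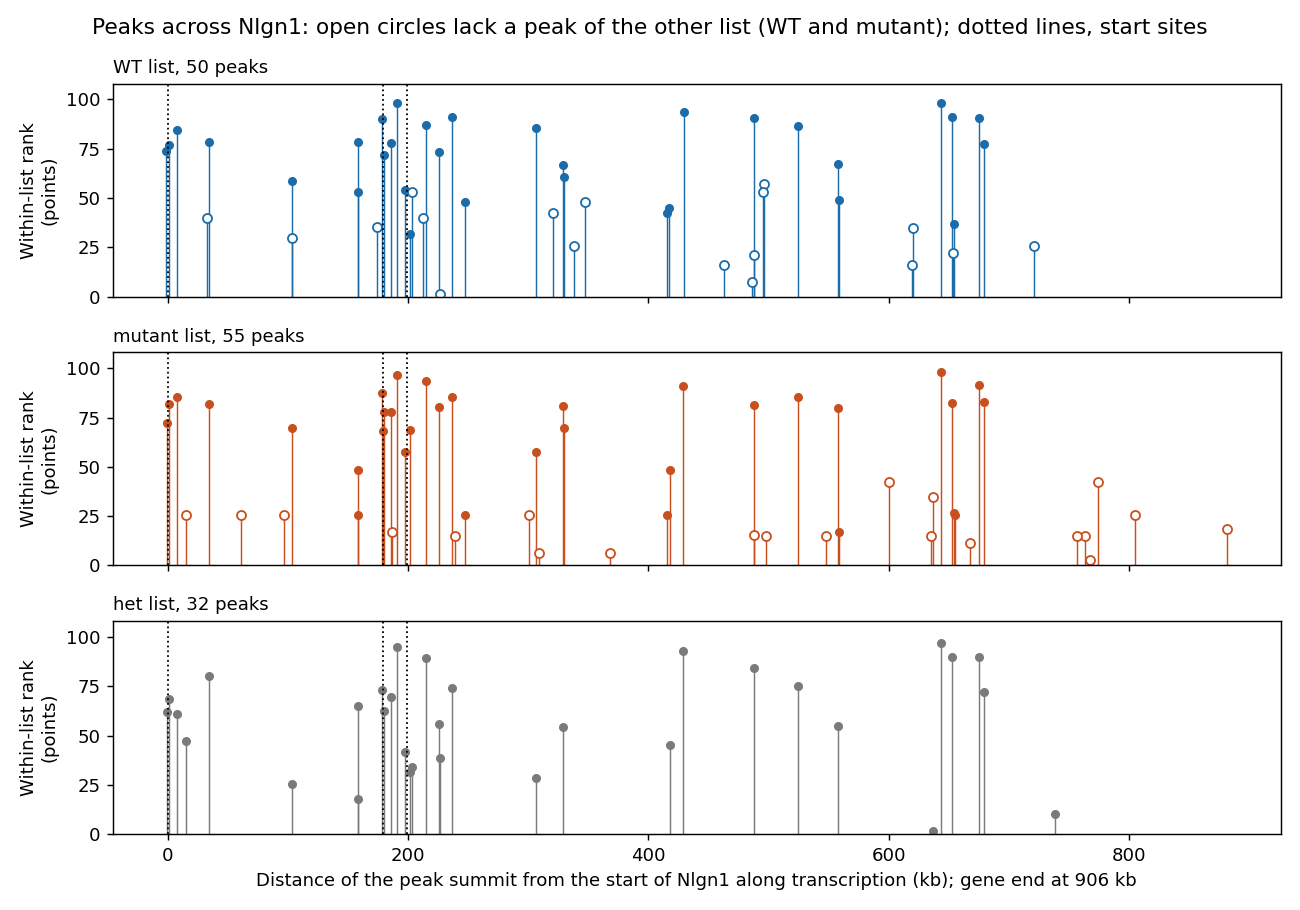
Peaks of the 3 lists across Nlgn1, drawn in the same way, with dotted lines at the coding start sites. Open circles are 18 of 50 WT peaks and 21 of 55 mutant peaks, and the far end of the gene has 6 mutant peaks of low rank that have no WT peak. Over the whole mutant list 30.7% of peaks have none.

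Peaks without a counterpart were mostly weak. Of the 56 WT peaks of the 5 genes with a rank of 80 or more, 0 lacked a mutant peak (upper bound 6.42%) and all 56 had a het peak. Between ranks 50 and 80, 4 of 63 lacked one, 6.35% (2.50 to 15.2%), and below 50, 41 of 81, 50.6% (40.0 to 61.2%). The whole WT list gave 0.0327%, 3.60% and 43.4% in the same bands.

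The order of Nlgn1 and Nrxn3 was the same among stronger peaks. At a −log10 q of at least 5, 7 of its 37 WT peaks had no mutant counterpart, 18.9% (9.48 to 34.2%), against 2 of 84 in Nrxn3, 2.38% (0.655 to 8.27%), and 2 of 15 in Nrxn2. The whole list gave 5.78% and the genes of 500 kb or more 7.87%. In the opposite direction 2 of 30 such mutant peaks of Nlgn1 had no WT peak, 6.67% (1.85 to 21.3%), where the whole mutant list gave 11.2%. The 7 Nlgn1 peaks had pileups of 12 to 15, and 1 of them had a het peak. The strongest, at chr3:25835993-25836144 in an intron, had pileup 15, a −log10 q of 8.08 and rank 57.1. The strongest Nlgn1 peaks of the mutant list without a WT peak were tied, at chr3:25558638-25558730 and chr3:25732007-25732159, each with pileup 12 and rank 42.3.

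**Figure D4:**
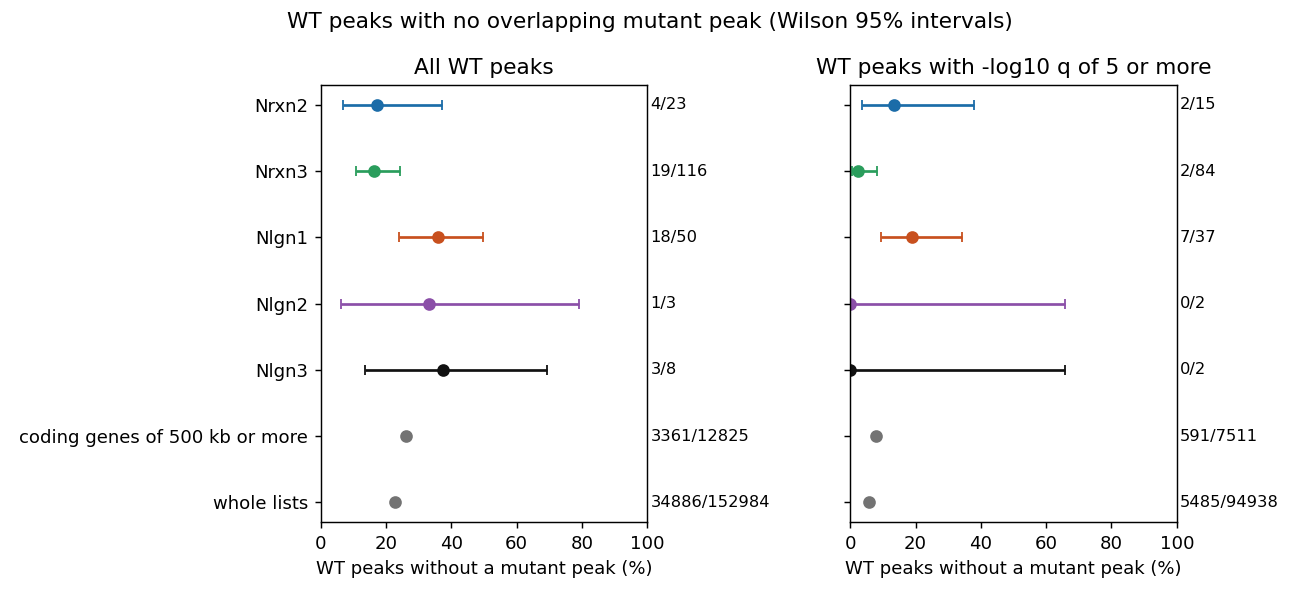
Percent of WT peaks without an overlapping mutant peak for each gene, for protein-coding genes of 500 kb or more and for the whole lists, with Wilson 95% intervals and the counts at the right of each panel. Nlgn1 is at 36.0% of all peaks and 18.9% of those with a −log10 q of at least 5, and Nrxn3 at 16.4% and 2.38%.

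The strongest WT peak of Nrxn3 without a mutant peak within 300 bp, at chr12:89554323-89554421, had pileup 25 and rank 57.1, with no het peak. The strongest in the mutant list without a WT peak, at chr12:89240021-89240249, had pileup 16 and rank 61.1, and a het peak of rank 33.9 overlapped it. In Nrxn2 the WT peak at chr19:6516269-6516455 ranked 46.5 and had a het peak of rank 19.2, and the mutant peak at chr19:6529678-6529872 ranked 60.2 with no het peak. These peaks were of middle rank in their list.

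For peaks found in both WT and mutant, strength was compared by rank. Among the 155 shared peaks the median rank change, mutant minus WT, was 0.98 points (95% order-statistic interval −0.10 to 3.40), and 66 ranked lower in mutant, 42.6%, where 38.1% of all shared peaks did. The median over the whole lists was 2.28 points. The median ratio of scaled pileup, mutant over WT, was 1.003 in the 5 genes and 1.05 over the lists. The interval of the 5 genes included the median of the lists, and also 0.

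By gene, the median change was −2.50 points over 19 shared peaks of Nrxn2 (interval −4.08 to 14.7), 2.31 over 97 of Nrxn3 (0.18 to 6.37) and −0.13 over 32 of Nlgn1 (−5.53 to 5.16). Of these peaks, 10, 38 and 17 ranked lower in mutant. Both shared peaks of Nlgn2 and 4 of 5 of Nlgn3 ranked higher. The Nrxn2 median sat at the 5.32 percentile of the 2575 protein-coding genes with 10 or more WT peaks, but its 9 higher peaks kept its interval wide. The median change was 8.94 points for WT peaks below rank 50, 3.40 between 50 and 80, and −0.84 for the 56 peaks at 80 or more, 33 of which were lower in mutant. The whole lists gave 12.1, 2.17 and 0.29 in the same bands. At that strength 9 of 12 Nlgn1 peaks, 22 of 37 Nrxn3 peaks and 2 of 4 Nrxn2 peaks ranked lower, where the whole lists had 13731 of 30590.

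**Figure D5:**
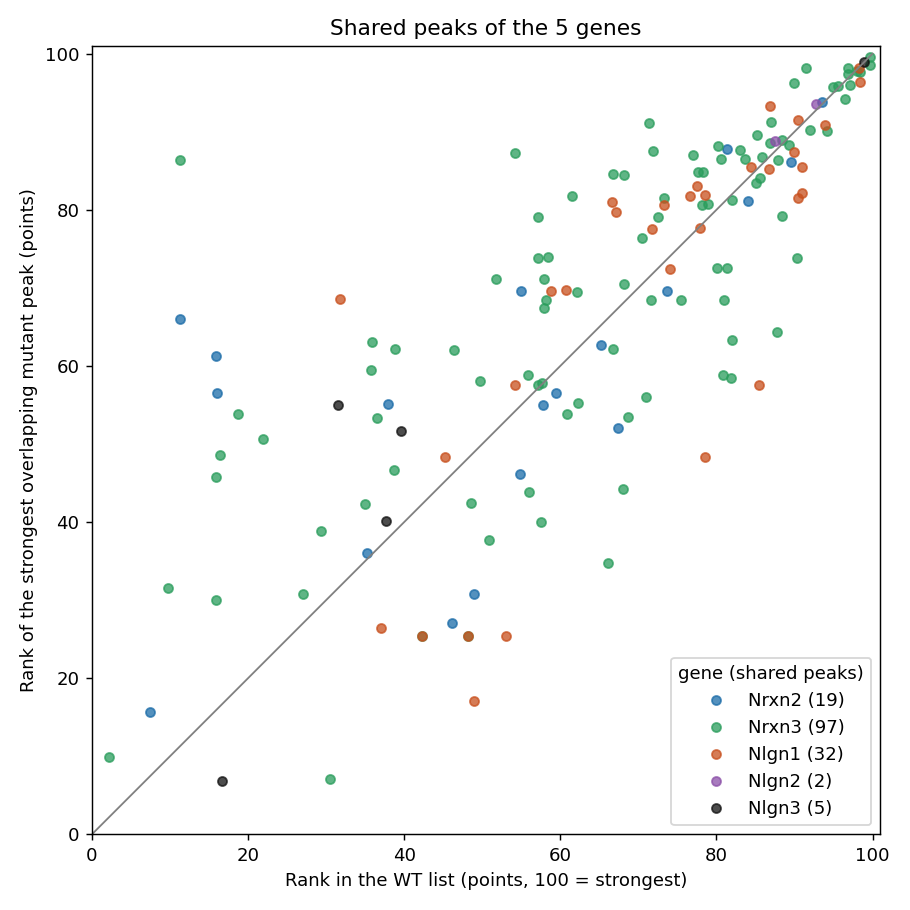
Rank of each shared WT peak (horizontal axis, points) against the rank of the strongest mutant peak that overlaps it (vertical axis, points), coloured by gene, with the line of equal rank. Of the 155 points 66 lie below the line, and the points draw together near the top right, where the strongest peaks of both lists are.

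The intronic peaks that carry these values are shown as the 200 bases around the WT summit, on the plus strand of GRCm38.p6, with matches to the motifs searched in capitals. They are the strongest WT peak of Nrxn3 and of Nlgn1, and the shared peaks that changed most in rank among WT peaks whose −log10 q was at least 5.
Nrxn3 strongest, chr12:90113546-90113745: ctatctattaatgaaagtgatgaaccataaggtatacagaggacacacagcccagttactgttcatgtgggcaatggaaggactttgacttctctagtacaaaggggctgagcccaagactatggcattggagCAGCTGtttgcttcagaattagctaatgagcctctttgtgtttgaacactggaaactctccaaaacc
Nrxn3 largest rank decrease, chr12:89613751-89613950: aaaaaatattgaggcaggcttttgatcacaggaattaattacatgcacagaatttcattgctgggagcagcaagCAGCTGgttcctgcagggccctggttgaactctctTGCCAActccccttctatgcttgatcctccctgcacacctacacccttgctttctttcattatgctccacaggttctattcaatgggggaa
Nrxn3 largest rank increase, chr12:89282609-89282808: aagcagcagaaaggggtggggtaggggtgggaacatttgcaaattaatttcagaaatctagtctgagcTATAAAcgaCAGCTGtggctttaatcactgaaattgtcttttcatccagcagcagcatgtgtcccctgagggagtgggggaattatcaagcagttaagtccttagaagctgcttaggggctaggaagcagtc
Nlgn1 strongest, chr3:26141699-26141898: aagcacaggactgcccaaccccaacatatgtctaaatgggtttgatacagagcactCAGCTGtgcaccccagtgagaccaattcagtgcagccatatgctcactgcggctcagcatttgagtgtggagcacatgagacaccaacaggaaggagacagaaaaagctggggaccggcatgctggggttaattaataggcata
Nlgn1 largest rank decrease, chr3:25773934-25774133: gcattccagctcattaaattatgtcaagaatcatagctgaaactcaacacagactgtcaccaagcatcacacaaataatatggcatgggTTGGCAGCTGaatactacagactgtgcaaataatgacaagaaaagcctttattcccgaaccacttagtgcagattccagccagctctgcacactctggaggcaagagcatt
Nlgn1 largest rank increase, chr3:26003254-26003453: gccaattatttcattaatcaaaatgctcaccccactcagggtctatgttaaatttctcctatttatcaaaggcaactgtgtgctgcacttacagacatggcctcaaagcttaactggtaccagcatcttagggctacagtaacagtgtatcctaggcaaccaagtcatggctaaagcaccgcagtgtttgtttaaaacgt

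The E-box CAGCTG is in all but the last of these, which holds none of the motifs. The Nrxn3 peak with the largest decrease also holds TTGGCA, part of an NFI recognition site, on the minus strand. The Nrxn3 peak with the largest increase holds TATAAA, and in the Nlgn1 peak with the largest decrease TTGGCA and the E-box overlap. Over all 200 WT peaks of the 5 genes, 54 held CAGCTG within this distance of the summit, 27.0% (21.3 to 33.5%), against 23.5% of the 147794 WT peaks read. TTGGCA was in 26.0% (20.4 to 32.5%) against 21.7%, and CAGATG in 30.0% (24.1 to 36.7%) against 28.5%. CCTGCTG was in 10% against 12.1%, TGACTCA in 4% against 3.94%, and TATAAA in 6% against 5.49%. The intervals of the last 3 were 6.57 to 14.9%, 2.04 to 7.69% and 3.47 to 10.2%. For all 6 motifs the share of the WT peaks read lay within the interval of the members. The peaks read lay on 20 chromosomes, which leaves part of the 152984 WT peaks out. The median GC content at the summits was 46.8% in both Nrxn3 and Nlgn1 and 58.5% in Nrxn2, against 51.5% over the WT peaks read.

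The strongest Nrxn3 peak, 1391 kb into the gene and 301 kb past the beta start, spanned chr12:90113300-90113975. Its pileup was 84 in WT and 71 in mutant, at ranks of 99.7 and 98.5, with 99.0 in het, and the mutant to WT ratio was 0.835 (0.600 to 1.16). The peak with the largest decrease, chr12:89613803-89613936, went from pileup 19 and rank 66.2 in WT to pileup 11 and rank 34.7 in mutant, with 45.6 in het, a ratio of 0.572 (0.246 to 1.26). The peak with the largest increase, chr12:89282493-89282937, went from pileup 15 and rank 54.2 to pileup 35 and rank 87.3, with 58.8 in het. Its ratio of 2.30 (1.23 to 4.54) had an interval above 1, which does not allow for its choice as the largest of 82 changes. Nrxn3 had 6 shared peaks of this strength that ranked 20 points or more lower in mutant, 7.32%, and 4 that ranked as much higher, 4.88%, near the 7.28% and 5.04% of the whole lists. By the ratio, 2 of the 82 had an interval below 1 and 2 above, 2.44% each, against 0.679% and 0.945% of the whole lists. Apart from the largest increase these are named after their values were seen. The peak at chr12:88918429-88918752 had pileups of 41 in WT and 22 in mutant, a ratio of 0.530 (0.301 to 0.911), and that at chr12:90182983-90183385 had 37 and 21, a ratio of 0.560 (0.312 to 0.983). The peak at chr12:89945625-89946362 had 25 and 49, a ratio of 1.94 (1.17 to 3.27).

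The strongest Nlgn1 peak, 191 kb into the gene, spanned chr3:26141642-26142047. Its pileup was 68 in WT and 57 in mutant, at ranks of 98.4 and 96.4, with 94.7 in het, and the ratio was 0.828 (0.572 to 1.19). The largest decrease was at chr3:25773989-25774234, from pileup 16 and rank 48.9 to pileup 11 and rank 17.1, with no het peak, a ratio of 0.679 (0.285 to 1.56). Of the 30 shared Nlgn1 peaks at a −log10 q of at least 5, 5 ranked 20 points or more lower in mutant, 16.7%, and 0 ranked as much higher, against 7.28% and 5.04% of the whole lists. The largest increase, at chr3:26003282-26003479, was 14.5 points, from 66.6 to 81.0.

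The other 4 decreases at Nlgn1 are named after their values were seen. The strongest, at chr3:26026095-26026316, went from pileup 31 and rank 85.5 to pileup 15 and rank 57.5, with a het rank of 28.5 and a ratio of 0.478 (0.240 to 0.912). A neighbouring pair 158 to 159 kb into the gene, at chr3:26173712-26173944 and chr3:26174233-26174466, went from ranks of 78.5 and 53.0 to 48.3 and 25.4. The last, at chr3:26085263-26085451, went from 48.2 to 25.4. All 5 were intronic, and for 4 of them the interval of the ratio included 1.

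Nrxn2, of 125 kb, had 15.8 WT peaks per 100 kb, against 7.11 in Nrxn3 and 5.40 in Nlgn1. It held 23 WT, 15 het and 24 mutant peaks, and 4 WT peaks had no mutant peak, 17.4% (6.98 to 37.1%). Its strongest peak was that of the first alpha start. Among its WT peaks with a −log10 q of at least 5, the largest decrease, at chr19:6549598-6549738 downstream of the gene, was from rank 46.1 to 27.1, and the largest increase, at chr19:6452139-6452490 in an intron, was from 54.9 to 69.6. The ratios were 0.780 (0.369 to 1.62) and 1.30 (0.722 to 2.38), so neither exceeded counting error. Weaker shared WT peaks of Nrxn2 changed by up to 54.8 points.

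In Nlgn2, of 14.7 kb, the lists held 3 WT, 3 het and 4 mutant peaks. Apart from the promoter, a peak at chr11:69846216-69846681, within 1 kb of a start of the neighbour Plscr3, ranked 87.5 in WT and 88.8 in mutant, with 80.3 in het. The remaining WT peak, near the start of Spem1, ranked 20.3 and had no mutant peak. In Nlgn3, of 26.8 kb, there were 8 WT, 3 het and 8 mutant peaks, and 3 WT peaks had no mutant peak. The strongest lay downstream of the gene, at chrX:101332182-101333218, with pileups of 82 in WT and 85 in mutant, ranks of 99.0 in both and 97.9 in het, and a ratio of 1.02 (0.747 to 1.40). Over the whole X chromosome 15.0% of WT peaks had no mutant peak, 28.1% of mutant peaks had no WT peak and the median rank change was 2.55. The Y chromosome held 36 WT, 13 het and 25 mutant peaks, and the sex makeup of the pools was not tested.

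Genes of the same trans-synaptic system were read in the same way. These 22 genes held 375 WT peaks, of which 91 had no mutant peak, 24.3% (20.2 to 28.9%), against 22.8% of the whole WT list. They held 384 mutant peaks, of which 93 had no WT peak, 24.2% (20.2 to 28.7%), against 30.7% of the whole mutant list. A start site peak was present for 21 genes in both WT and het and for 22 in mutant, the difference being Nxph4, a neurexophilin, with a rank of 35.3 in mutant alone. The share of all protein-coding genes with such a peak is not given, so these counts cannot be read as high or low. Secreted ligands had the lowest share of WT peaks lacking a mutant counterpart, 10 of 60 (16.7%, 9.31 to 28.0%). The Mdga genes, whose products bind neuroligins and block neurexins, had the highest, 21 of 64 (32.8%, 22.6 to 45.0%). The intervals overlap, and both include the 22.8% of the whole WT list.

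As examples among the partners, Cbln1, the cerebellin of granule neurons, had 2 peaks in each list, with a promoter rank of 89.9 in WT and 93.7 in mutant, and 91.5 in het. The start of Mdga2 ranked 79.4 in WT, 74.4 in het and 94.7 in mutant. For the presynaptic scaffold Cask the start ranked 98.2, 96.1 and 98.5, and for the postsynaptic scaffold Dlg4 83.8, 86.4 and 89.8. These examples all ranked higher in mutant than in WT. The starts of Nxph1, Nxph3, Grid1, Mdga1, Lin7a and Gphn ranked lower, that of Grid1 going from 77.9 in WT to 71.1 in mutant. The remaining starts with a peak in both lists ranked higher in mutant. By gene, the median rank change of shared peaks was above 0 for 16 of the 22 and below 0 for 6. Over the 2575 protein-coding genes with 10 or more WT peaks, the median of this gene value was 2.56. The share of all genes above 0 is not given, so the count of 16 is not read as a trait of the partners.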

How the data were processed

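The 8 ATAC-seq libraries (3 WT, 3 mutant, 2 het) were pooled by group by the authors, who, per the labels and file headers, trimmed with Trim Galore 0.4.1, removed duplicates with Picard 1.139 and called peaks with MACS2 2.1.0.20150731 at a q-value cutoff of 0.05, on mm10. The headers name STAR alignments without a shift for WT and mutant, with tags of 107 and 76 bp, and bowtie alignments with an extension of 200 bp for het, whereas the methods give bowtie for all. The authors deposited for each peak the pileup height (signal, in tags, not scaled), the fold enrichment over local background (a ratio) and −log10 q. 0 columns were left without a group.

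From these, overlaps were counted in Python 3.11.15 and matched bedtools 2.31.1 for each pair of lists, and the functions were tested on simulated data. Genes were from GENCODE M21. A start site was called alpha when its coding sequence was at least 90% of the longest, and beta when it was under 50% and shared the coding end. Pileups were divided by the tags of the list, and ratios have exact binomial 95% intervals. Intervals cover counting error only. The members and lists were chosen with earlier results of these data known. Named peaks were those within 1 kb of a start site, the strongest WT peak of a gene, the strongest in 1 list alone within 300 bp, and the largest rank changes. Alternatives were other overlap rules, stricter peaks, other windows, other rank measures, and leaving out Nrxn3, Nlgn3 or peaks at other genes' starts. A gene of the list of partners is not reported here.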

Additional observations from a re-analysis of the deposited data

How the results depend on the processing

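Of 53 alternative values, 42 stayed within the interval or 1.5 times of the value given, 11 moved and 0 reversed in sign. Shares and peak counts cannot change sign, so only the alternatives for rank changes could have reversed. WT peaks without a mutant peak were 31.5% with 50% reciprocal overlap, 14.3% once weak peaks (−log10 q under 5) left both lists, 7.86% once they left the WT list alone and 31.0% without Nrxn3, which holds 116 of the 200 peaks. Mutant peaks lacking a WT counterpart were 36.9%, 15.9% and 5.52% under the first 3 of these. WT peaks with a het peak were 62.0%, 83.6% and 87.9%. The median rank change at first start sites with a peak in both lists was 0.87 over 3 genes and 0.16 when ranked by pileup. The cause was not tested, other than that stricter limits remove weak peaks. The 9 alternatives for the median rank change of shared peaks gave 0.19 to 1.98.

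No paired analysis was possible because each list was called on pooled libraries. Leaving out each replicate was not run for the same reason. Depth limits weak peaks: with pileups of 10 to 20 tags, ratios of WT to mutant have wide counting intervals.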
